A study of Mus musculus with 60 samples.

Results

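A set of 10 genes of the mitochondrial cell death machinery were followed in mouse Balb/c 3T3 fibroblasts exposed to 4 chemical carcinogens. The genes were the Bcl2 family members Bid, Bcl2l11 (Bim), Bbc3 (Puma), Pmaip1 (Noxa), Bak1, Bax, Bcl2, Bcl2l1 (Bcl-xL), Mcl1 and Bnip3l (Nix). Each was represented by the probe set that the platform's gene table gives to its symbol alone, taking the one with the highest mean over all arrays. Of the 10 genes, 8 had a probe set of their own, among 18194 genes with one on the array. The gene table used here gives no probe set to Bax, and the 3 probe sets of Bnip3l are shared with its copy Bnip3l-ps, so neither was analysed here. Pmaip1 had 1 probe set, which exceeded the array median on 0 of 60 arrays, and it was not tested. The other 7 members exceeded that median on all 60 arrays and were among the 12650 genes tested.

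Bcl2 family proteins decide at the outer mitochondrial membrane whether a stressed cell dies. BH3-only proteins such as Bid, Bim, Puma and Noxa carry the stress signal, Bak and Bax form the pores that let cytochrome c out, and Bcl2, Bcl-xL and Mcl1 hold both groups in check. Bax, Bbc3 and Pmaip1 are known targets of p53, Bcl2l11 is known to be switched on by FoxO factors when growth factor signalling falls, and Nix is a mitophagy receptor.

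The cells are an established line of mouse embryo fibroblasts of the BALB/c strain, treated at incomplete confluence in medium with serum. The chemicals were 2-acetylaminofluorene (AAF), benzo(a)pyrene (BaP), 2,4-diaminotoluene (DAT) and 3-methylcholanthrene (MCA). In approach 1 the cells received 25 µM AAF, 0.5 µM BaP, 50 µM DAT or 2 µM MCA for 24 h and for 120 h. In approach 2 the concentrations were chosen by the submitters as IC20 for each time. At 24 h these were 10 µM AAF, 1.5 µM BaP, 700 µM DAT or 20 µM MCA. At 120 h they were 10 µM AAF, 0.1 µM BaP, 0.2 µM DAT or 0.1 µM MCA. Controls received 0.75% DMSO, the solvent, and each approach had its own controls at each time. That made 20 groups of 3 arrays. The labels describe triplicates without saying that they came from separate cultures, so a p-value here reflects array-to-array spread that could be technical only. RNA came from whole dishes, so fewer cells of a kind and less RNA per cell cannot be told apart.

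Expression was read as the deposited intensity of each probe set. The intensities were quantile normalized within each approach, and differences are on the log2(intensity + 16) scale, which understates the change of dim genes. Errors of a difference are standard errors (SE) or 95% intervals from limma, fitted to the 30 arrays of an approach, and a gene was called where limma's p-value, adjusted by the Benjamini-Hochberg method over all genes tested, was under 0.05. Treatments of 1 approach and time share the same 3 control arrays, so their results are not independent of each other. All 9 listed fibroblast markers lay above the array median on all 60 arrays. Of the markers of macrophages, epithelium, endothelium, skeletal muscle and adipocytes, 1 of 6, 0 of 6, 0 of 5, 0 of 5 and 0 of 4 did so. The spread within groups was wider in approach 2, where the median residual SD per gene was 0.2177 against 0.1147 in approach 1, and the array number limits the precision of every value.

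Over the 16 treatments the members changed in 10 of 112 tests, 3 higher and 7 lower, and 8 of the 10 lay in approach 1 at 120 h. Bcl2l11 fell in 3 treatments, Bcl2 fell in 2, Bid rose in 2 and fell in 2, and Bak1 rose in 1. Bbc3, Bcl2l1 and Mcl1 passed the test in none of the 16 when read by their brightest probe sets. At 120 h in approach 1, 3 of 7 members were called after 0.5 µM BaP, 2 higher and 1 lower, where 26.7% of all genes tested were called, 13.8% higher and 12.9% lower. The 2 µM MCA group had 3 of 7 called, all lower, beside 39.1% of all genes, 18.8% higher and 20.2% lower. The 50 µM DAT group had 2 of 7 called, both lower, beside 23.7%, of which 11.7% were higher and 12% lower. The 25 µM AAF group had 0 of 7 called beside 0.356%. Higher genes made up 51.6%, 48.2% and 49.4% of all calls after BaP, MCA and DAT, and 63.5%, 66.2% and 61.4% when arrays were scaled to the same median. Where a treatment called so many genes, a few called members do not set the family apart. This fit ignored the replicate numbers of the arrays. With the replicate number as a block, an alternative fit, Bcl2l11 was called in 8 of the 16 treatments, Bid in 7, Bcl2 in 3 and Bbc3 in 0. Bak1, Bcl2l1 and Mcl1 were called in 1 each. The block also called more of all genes, 47.2% after 2 µM MCA for 120 h. Where it added member calls at 24 h, it called 5.52% after 25 µM AAF and 5.08% after 2 µM MCA. The shares were 22.9% after 700 µM DAT and 7.69% after 20 µM MCA. Where it added calls at 120 h, they were 33.1% after 50 µM DAT, 10.6% after 0.1 µM BaP and 9.9% after 0.1 µM MCA.

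At 24 h in approach 1, 1 of 7 members was called after 0.5 µM BaP, and it was lower, beside 9.38% of all genes, 4.51% higher and 4.88% lower. None of the 7 was called after 25 µM AAF (0.909% of all genes), 50 µM DAT (0.174%) or 2 µM MCA (2.21%). In approach 2 at 24 h, 1 of 7 was called after 700 µM DAT, and it was higher, beside 7.82% of all genes, 4.15% higher and 3.67% lower. The count was 0 of 7 after 10 µM AAF (0.0237%), 1.5 µM BaP (2.38%) and 20 µM MCA (1.29%). In approach 2 at 120 h, 0 of 7 members was called after 10 µM AAF (0.545% of all genes), 0.1 µM BaP (1.42%), 0.2 µM DAT (0%) or 0.1 µM MCA (2.46%). The median difference of the 7 members was 0.04 after 0.5 µM BaP, -0.13 after 50 µM DAT and -0.09 after 2 µM MCA at 120 h, beside medians of all genes of -0.01, -0.02 and -0.02.

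**Figure D1:**
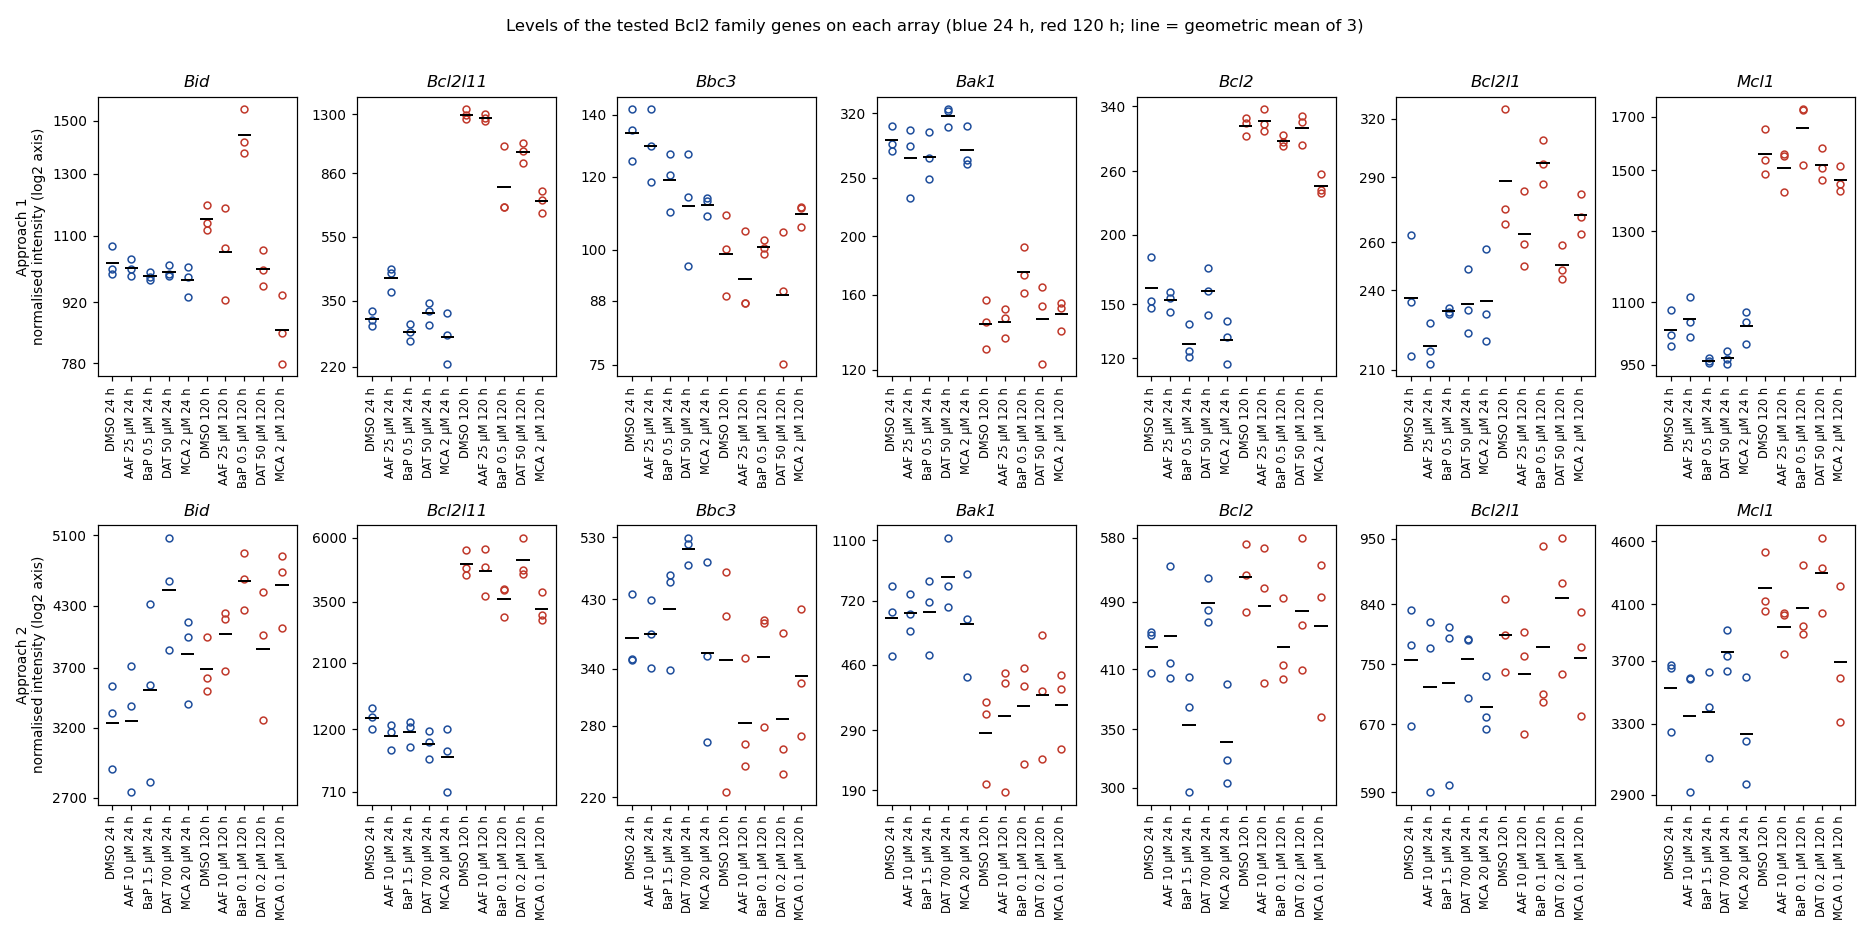
Normalised intensity of each tested member on every array (vertical log2 axes that differ between panels), with approach 1 in the upper row, approach 2 in the lower row, 24 h in blue, 120 h in red and a line at the geometric mean of 3 arrays. Bcl2l11 stood at 293 to 325 in the approach 1 controls at 24 h and at 1255 to 1347 at 120 h, and was lower at 120 h after BaP, DAT and MCA.

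For 5 of the 7 members (Bcl2l11, Bak1, Bcl2, Mcl1 and Bcl2l1) the largest difference by the brightest probe set was between the 2 culture times, not after a treatment. In the DMSO controls of approach 1, Bcl2l11 was 2.02 higher on the log2 scale at 120 h than at 24 h (SE 0.12, limma adjusted p = 2.12e-14), about 4.07-fold. Its intensity was 325, 293 and 305 on the 3 arrays at 24 h and 1347, 1255 and 1296 at 120 h, with no overlap. In approach 2 the control arrays read 1335, 1435 and 1202 at 24 h and 5421, 4370 and 4657 at 120 h. That difference was 1.85 (SE 0.17, limma adjusted p = 1.7e-09), and again the groups did not overlap. The pore-forming Bak1 moved the other way in both approaches.

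Bak1 read 277, 285 and 305 in the approach 1 controls at 24 h and 144, 157 and 130 at 120 h. It fell by 0.94 (SE 0.10, limma adjusted p = 2.91e-09). In approach 2 it read 798, 487 and 667 at 24 h and 199, 355 and 326 at 120 h, a difference of -1.12 (SE 0.33, limma adjusted p = 0.00873). The groups did not overlap in either approach. Without the first control array at 120 h of approach 2 the difference was -0.88 and its adjusted p 0.0688.

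Among the prosurvival genes, Bcl2 rose by 0.90 in the approach 1 controls (limma adjusted p = 9.9e-11), from 152, 148 and 183 to 317, 301 and 324, with no overlap. Mcl1 rose by 0.59 (limma adjusted p = 3.52e-10), from 993, 1079 and 1018 to 1487, 1536 and 1651, also with no overlap. Bcl2l1 rose by 0.27 (limma adjusted p = 0.00285), from 215, 263 and 235 to 325, 268 and 275, and its groups lay apart by a narrow margin. The second brightest probe set of Bcl2l1 gave -0.06 in the same comparison, so the gene's direction depended on the probe set.

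Of the BH3-only genes other than Bcl2l11, Bbc3 fell by 0.38 in the approach 1 controls (limma adjusted p = 0.00158), from 125, 142 and 135 to 89.0, 100.2 and 108.9, with no overlap. Bid rose by 0.17 (limma adjusted p = 0.0378), from 1070, 1005 and 993 to 1137, 1196 and 1117, but its second brightest probe set gave -0.08. The call of Bid was lost without control array 2 or 3 at 24 h or 1 or 2 at 120 h, with differences of 0.14 to 0.17. All 7 members were thus called in the approach 1 controls, 5 of them higher and 2 lower, where 57.8% of all genes were called, 29.3% higher and 28.5% lower.

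In the approach 2 controls, 3 of 7 members were called, 2 higher and 1 lower, beside 40.2% of all genes, 17.8% higher and 22.4% lower. Higher genes made up 44.3% of all calls there, and 12.3% under median scaling. Besides Bcl2l11 and Bak1 this was Mcl1, which read 3670, 3650 and 3252 at 24 h and 4509, 4051 and 4124 at 120 h, with no overlap. Its difference was 0.26 (limma adjusted p = 0.0336) after quantile normalization and -0.45 when arrays were scaled to the same median, a scaling under which the median of all genes was -0.38. Its adjusted p was 0.152 without the third array at 24 h and 0.139 without the first at 120 h. Bid differed by 0.19 (limma adjusted p = 0.309, and 0.0279 with the replicate number as a block). The differences of Bcl2 (0.26), Bcl2l1 (0.07) and Bbc3 (-0.10) did not pass, with 95% intervals of -0.08 to 0.60, -0.22 to 0.36 and -0.59 to 0.39. The mean over all 5 probe sets of Bcl2 gave 0.58 (limma adjusted p = 0.000528). The log2 ratio of 3' to 5' actin probe sets, a sign of RNA quality, was 0.54 ± 0.12 (SD, n = 3) at 120 h and 0.29 ± 0.07 at 24 h in these controls, with no overlap. The ratio for GAPDH moved the other way, to -0.46 ± 0.08 at 120 h from -0.32 ± 0.04 at 24 h, with no overlap. In the approach 1 controls the actin ratios overlapped, and the GAPDH ratio was -0.18 ± 0.02 at 120 h and -0.28 ± 0.03 at 24 h, with no overlap. The part of RNA quality in the differences was not tested.

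**Figure D2:**
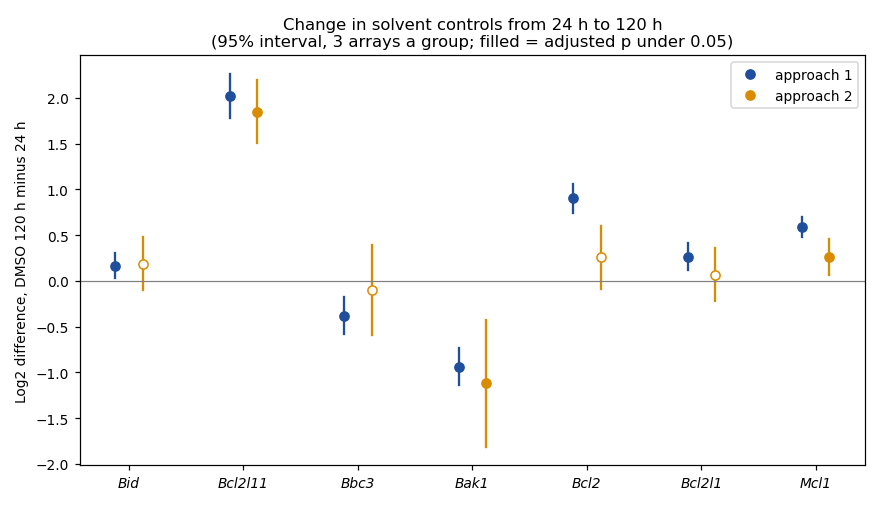
Log2 difference between DMSO controls at 120 h and at 24 h for the 7 tested members (points, with 95% intervals, 3 arrays a group, filled where the adjusted p was under 0.05). Bcl2l11 was higher by 2.02 and 1.85 and Bak1 lower by -0.94 and -1.12 in approaches 1 and 2, and the approach 2 value of Mcl1 (0.26) turned to -0.45 under median scaling.

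Bcl2l11, which encodes Bim, an activator that binds all prosurvival proteins, had the largest treatment difference of the 7 members. The 250 bases before its transcription start are shown because they hold the FoxO motif and the longer aryl hydrocarbon receptor motif among the 6 motifs searched. They are printed 5′ to 3′ on the gene's strand, as RefSeq gives them on GRCm38.p6, at chr2:128125788-128126037. Below them stands the window of Bbc3, at chr7:16310011-16310260 on the plus strand, for comparison with a p53-driven member.
Bcl2l11: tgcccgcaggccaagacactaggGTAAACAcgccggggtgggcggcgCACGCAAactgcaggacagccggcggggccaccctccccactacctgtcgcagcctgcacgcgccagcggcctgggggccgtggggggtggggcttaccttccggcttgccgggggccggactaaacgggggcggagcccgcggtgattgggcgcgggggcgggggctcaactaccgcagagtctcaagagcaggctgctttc
Bbc3: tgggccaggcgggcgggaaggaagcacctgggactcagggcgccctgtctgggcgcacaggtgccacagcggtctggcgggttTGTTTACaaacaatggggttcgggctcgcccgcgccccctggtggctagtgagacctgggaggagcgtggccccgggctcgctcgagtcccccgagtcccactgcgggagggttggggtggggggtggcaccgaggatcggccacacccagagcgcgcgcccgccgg
Capitals mark the FoxO motif GTAAACA, on the plus strand in Bcl2l11 and on the minus strand in Bbc3, and the aryl hydrocarbon receptor motif TNGCGTG, on the minus strand in Bcl2l11. In the Bcl2l11 window these 2 matches do not overlap.

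Both strands of 12 windows of the 7 tested members were searched, and the printed windows were chosen after their matches were seen. Among 32851 RefSeq windows of the same length, 3.17% hold GTAAACA, as do 2 of the 12. TNGCGTG is in 4.1% of all windows and in 1 of the 12, and the shorter GCGTG, which TNGCGTG contains, in 28.2% and in 5 of the 12. The half-site of p53 is in 7.13% and in 0 of the 12, the E2F motif TTTNNCGC, with C or G at each N, in 1.86% and in 1, and the Atf4 and Chop motif TGATGNAA in 3.45% and in 0. A match is a run of letters and no measurement of binding.

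At 120 h in approach 1, Bcl2l11 stood highest in the DMSO controls, at 1299 ± 46 (SD, n = 3), then after 25 µM AAF at 1271 ± 33, 50 µM DAT at 996 ± 69, 0.5 µM BaP at 798 ± 207 and 2 µM MCA at 706 ± 55. The arrays of DMSO and AAF overlapped, as did those of DAT and BaP and those of BaP and MCA. The lowest AAF array, 1240, lay above the highest DAT array, 1062. After 2 µM MCA the arrays read 648, 713 and 758, all below the controls' lowest of 1255. Bcl2l11 fell by 0.87 (95% interval -1.11 to -0.63, limma adjusted p = 9.15e-07), to 0.548 of the control level.

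In the BaP group at 120 h the 3 Bcl2l11 arrays read 1038, 678 and 679, all below the controls. The difference was -0.72 (95% interval -0.96 to -0.48, limma adjusted p = 2.3e-05). After 50 µM DAT they read 1062, 923 and 1002, again with no overlap, and the difference was -0.38 (95% interval -0.62 to -0.14, limma adjusted p = 0.0171). The BaP and MCA calls held in all 18 other settings of each, and the DAT call in 13 of 18. It was lost without the second DAT array (-0.33, adjusted p 0.079), which had the lowest correlation with its group of all approach 1 arrays (mean r 0.9863), and without the first control array (-0.35, adjusted p 0.0604).

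All 5 probe sets of Bcl2l11 fell after 0.5 µM BaP and after 2 µM MCA at 120 h, by 0.63 to 0.91 and by 0.64 to 0.87. After 50 µM DAT 4 of the 5 fell, and the remaining one stood at -0.25 (limma adjusted p = 0.0927). In these counts p-values were adjusted over the probe sets fitted one by one. The probe sets read the same arrays and are no replicates of each other.

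**Figure D3:**
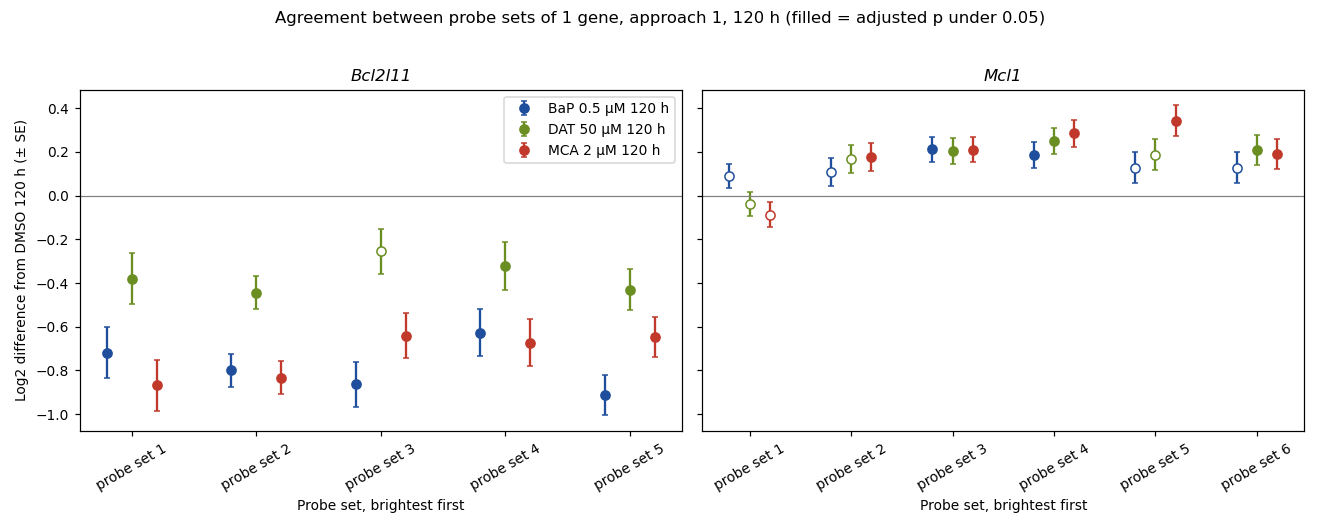
Log2 difference from DMSO at 120 h in approach 1 (points, with SE) for each probe set of Bcl2l11 (left) and Mcl1 (right), brightest first, filled where the adjusted p over all fitted probe sets was under 0.05. All 5 Bcl2l11 probe sets lay below 0 in the 3 treatments, while the brightest of 6 Mcl1 probe sets read -0.09 after MCA and the other 5 read 0.18 to 0.34.

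At 24 h none of the approach 1 treatments changed Bcl2l11 in the main test. It read 437, 371 and 424 after 25 µM AAF, above all control arrays (325, 293 and 305), a difference of 0.40 (95% interval 0.16 to 0.64, limma adjusted p = 0.111, and 0.0178 with the replicate number as a block). At 120 h the same AAF dose gave -0.03. The other 3 treatments at 24 h lay between -0.17 and 0.06. The mean over all 5 probe sets passed after AAF (0.28, limma adjusted p = 0.03), and the second brightest after BaP (-0.29, limma adjusted p = 0.0217).

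In approach 2 the Bcl2l11 differences were negative in 7 of 8 treatments, and none passed in the main test. After 0.1 µM MCA for 120 h the arrays read 3789, 3127 and 3000 against 5421, 4370 and 4657 in DMSO, with no overlap. The difference was -0.54 (95% interval -0.89 to -0.20, limma adjusted p = 0.0974, 0.000414 with the block and 0.0178 in 1 fit of all 60 arrays). After 0.1 µM BaP for 120 h it was -0.41 (limma adjusted p = 0.317), also with no overlap. At 24 h it was -0.47 after 20 µM MCA (limma adjusted p = 0.218, and 0.0027 with the block) and -0.32 after 700 µM DAT (limma adjusted p = 0.301, and 0.0195 with the block).

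Bid, whose caspase-cleaved form carries death receptor signals to mitochondria, moved in opposite directions after the 2 polycyclic hydrocarbons of approach 1 at 120 h. After 0.5 µM BaP its arrays read 1416, 1546 and 1376 against 1137, 1196 and 1117 in DMSO. All lay above the controls, and Bid rose by 0.33 (95% interval 0.19 to 0.47, limma adjusted p = 0.000575). The 2 µM MCA arrays read 846, 938 and 779, all below the controls. Bid fell by 0.42 (95% interval -0.56 to -0.28, limma adjusted p = 1.36e-05). Both calls held in all 18 other settings of each. The doses of the 2 chemicals differ, and no test between them was made.

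After 50 µM DAT for 120 h Bid read 1059, 1002 and 959, below the controls, a difference of -0.19 (limma adjusted p = 0.0438). That call held in 6 of 18 other settings. Without any 1 of the 3 control arrays, or the second or the third DAT array, the adjusted p was 0.0585 to 0.156. After 700 µM DAT for 24 h in approach 2 Bid read 5070, 3864 and 4560 against 3318, 2892 and 3542 in DMSO, with no overlap. The difference was 0.46 (95% interval 0.17 to 0.75, limma adjusted p = 0.0402). Without the first or second control array, or the first or the third DAT array, the adjusted p was 0.0827 to 0.196.

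For Bid 3 probe sets were fitted. After 0.5 µM BaP at 120 h 2 of the 3 rose (0.30 and 0.33) and the dimmest stood at 0.31 without passing. In the 2 µM MCA group 2 of the 3 fell (-0.31 and -0.42) and the dimmest stood at -0.14. After 50 µM DAT for 120 h the 3 ran from -0.19 to -0.07, and after 700 µM DAT for 24 h from 0.21 to 0.46. In this fit of single probe sets 0 of the 3 passed in either DAT group. Both DAT calls of Bid were also lost with the second brightest probe set in place of the brightest. In approach 2 at 120 h Bid read 4883, 4252 and 4590 after 0.1 µM BaP and 4851, 4078 and 4660 after 0.1 µM MCA, above the controls' 3499, 3606 and 3988. Those differences were 0.31 (limma adjusted p = 0.413) and 0.29 (limma adjusted p = 0.471, and 0.00869 with the block). After 20 µM MCA for 24 h the difference was 0.24 (limma adjusted p = 0.628, and 0.0405 with the block).

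Of the 3 p53-driven members only Bbc3 could be tested. Bbc3 encodes Puma, which binds all prosurvival proteins. Over 16 treatments its differences ran from -0.29 to 0.42 with a lowest limma adjusted p of 0.346, so 0 of 16 were called. The other 6 members had 10 of 96 tests called. Of these 10 calls, 8 lay in approach 1 at 120 h. The shares of all genes called there were 26.7% after BaP, 39.1% after MCA, 23.7% after DAT and 0.356% after AAF. The others were 1 after 0.5 µM BaP for 24 h (9.38% of all genes) and 1 after 700 µM DAT for 24 h (7.82%). Of all genes tested, 0% to 39.1% were called in each treatment, so a single gene called in none does not set p53-driven members apart. After 700 µM DAT for 24 h Bbc3 read 482, 530 and 518, above all control arrays (438, 351 and 350). That difference was 0.42 (95% interval -0.07 to 0.91, limma adjusted p = 0.349). After 0.5 µM BaP for 120 h it was 0.02 (95% interval -0.18 to 0.22), and after 2 µM MCA for 24 h -0.23 (95% interval -0.43 to -0.03, limma adjusted p = 0.346), with all arrays below the controls. Pmaip1, which encodes Noxa, an antagonist of Mcl1, read 3.49 to 10.5 in approach 1 and 0.289 to 15.7 in approach 2 as deposited, near the bottom of the scale.

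Other genes known as p53 targets moved in the same arrays. Of 27 tested, 12 rose and 2 fell after 0.5 µM BaP for 120 h, 9 rose and 7 fell after 2 µM MCA for 120 h, and 10 rose and 1 fell after 700 µM DAT for 24 h. Of all genes 26.7%, 39.1% and 7.82% were called there. The medians of the list were 0.21, 0.10 and 0.41, beside medians of all genes of -0.01, -0.02 and 0.00. Gadd45a, a growth arrest gene, rose by 2.13 after 700 µM DAT for 24 h (limma adjusted p = 1.84e-09) and fell by 0.78 after 2 µM MCA for 120 h (limma adjusted p = 7.1e-07). Ccng1, which encodes cyclin G1, rose by 0.76 after 2 µM MCA for 120 h and by 0.42 after 700 µM DAT. Eda2r, a receptor of the TNF receptor family, rose by 0.88 and 1.02 in the same treatments. Trp53 itself has no probe set of its own in the table used here.

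Bak1, the pore former that could be read, rose in 1 of 16 treatments. After 0.5 µM BaP for 120 h it read 161, 192 and 172 against 144, 157 and 130 in DMSO, with no overlap. The difference was 0.26 (95% interval 0.06 to 0.46, limma adjusted p = 0.0468), and it held in 6 of 18 other settings. Without the second or the third BaP array, or the first or the third control array, it was 0.20 to 0.27 with adjusted p from 0.08 to 0.205. The second probe set of Bak1 gave 0.05. The log2 ratio of 3' to 5' actin probe sets was 0.44 ± 0.06 (SD, n = 3) in this BaP group and 0.31 ± 0.02 in its controls, with no overlap. The GAPDH ratios overlapped. The Bcl2l11 and Bid calls and time differences of 0.5 µM BaP rest on these same arrays. The part of RNA quality in any of these results was not tested.

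Bcl2, the founding inhibitor of the family, fell in 2 treatments of approach 1. After 2 µM MCA for 120 h its arrays read 240.1, 237.5 and 257.1 against 317, 301 and 324 in DMSO, with no overlap. The difference was -0.34 (95% interval -0.50 to -0.18, limma adjusted p = 0.000972). Of its 5 probe sets 3 fell (-0.34 to -0.53), and the other 2 stood at -0.17 and -0.42 without passing. The call held in 17 of 18 other settings and was lost under median scaling.

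In the 0.5 µM BaP group at 24 h Bcl2 read 121, 138 and 124 against 152, 148 and 183, a difference of -0.30 (limma adjusted p = 0.0138) with no overlap. That call held in 9 of 18 other settings. Without the first or the third BaP array or the third control array the difference was -0.21 to -0.28 with adjusted p from 0.0607 to 0.136. Only the brightest of the 5 Bcl2 probe sets was called there, and the 5 ran from -0.30 to 0.22. The second brightest gave -0.14 (limma adjusted p = 0.525) and the mean over all 5 gave -0.0043 (limma adjusted p = 0.991). In the 2 µM MCA group at 24 h Bcl2 read 139.9, 131.3 and 117.4, also below the controls, and the difference of -0.28 did not pass (limma adjusted p = 0.0591, and 0.0427 without the second control array). In approach 2 the differences of the brightest Bcl2 probe set ran from -0.35 to 0.16 and none passed. After 1.5 µM BaP for 24 h the 5 Bcl2 probe sets ran from -0.33 to 0.81, and 0 of the 5 were called.

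Bcl2l1, which encodes Bcl-xL, passed in no treatment. By its brightest probe set the largest difference, -0.19 after 50 µM DAT for 120 h, had a 95% interval of -0.34 to -0.04. Its limma adjusted p was 0.0606, and 0.0374 without the second control array. The arrays there read 245, 259 and 248 against 325, 268 and 275, with no overlap. The highest difference of the brightest probe set was 0.10 after 0.2 µM DAT for 120 h. The 3 fitted probe sets of Bcl2l1 ran from 0.02 to 0.36 there. They ran from -0.20 to 0.70 after 0.1 µM MCA for 120 h, and 0 of the 3 were called in either.

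Mcl1, a short-lived prosurvival protein that also guards Bak, passed in no treatment by its brightest probe set, with differences from -0.19 to 0.09. Its 6 probe sets did not move alike. After 2 µM MCA for 120 h the brightest stood at -0.09 and the other 5 rose by 0.18 to 0.34. After 50 µM DAT 3 of the 6 rose (0.20 to 0.25), and after 0.5 µM BaP 2 of the 6 rose (0.19 and 0.21). With the mean of log2 values over all 6 probe sets in place of the brightest, Mcl1 rose after all 3 (0.14, 0.16 and 0.19 for BaP, DAT and MCA, limma adjusted p = 0.00816, 0.00317 and 0.000445). After 0.1 µM MCA for 120 h in approach 2 the brightest probe set read 4236, 3310 and 3588 against 4509, 4051 and 4124, a difference of -0.19 (limma adjusted p = 0.502, and 0.0388 with the block). In the 700 µM DAT group at 24 h 1 of the 6 probe sets rose, and the 6 ran from -0.01 to 0.33.

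**Figure D4:**
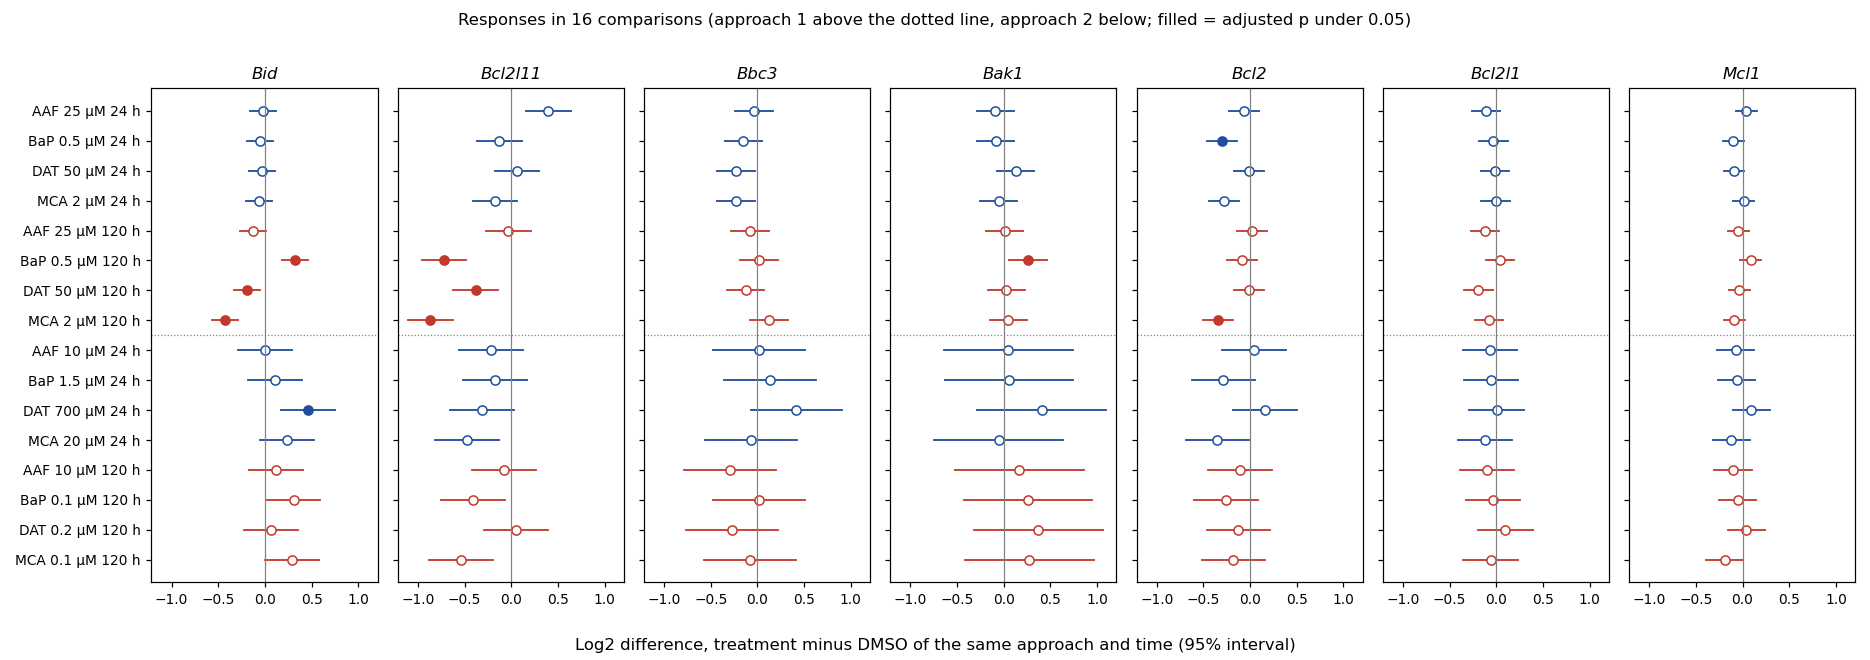
Log2 difference of each treatment from its own DMSO controls for the 7 tested members (points, with 95% intervals), approach 1 above the dotted line and approach 2 below, 24 h in blue, 120 h in red, filled where the adjusted p was under 0.05. Of the 10 filled points 8 lie in approach 1 at 120 h, and the approach 2 intervals are wider.

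Whether a response differed between 24 h and 120 h was tested for the 5 treatments given at the same dose at both times. The Bcl2l11 response was lower at 120 h than at 24 h for 2 µM MCA (-0.69, limma adjusted p = 0.00215) and for 0.5 µM BaP (-0.59, limma adjusted p = 0.0209). The BaP value lost its call without the first BaP or second control array at 24 h, or the second or the third BaP or first control array at 120 h, with differences of -0.49 to -0.57. The Bid response was higher at 120 h for BaP (0.38, limma adjusted p = 0.012) and lower for MCA (-0.36, limma adjusted p = 0.00606). Thus 2 of 7 members were called for BaP, 1 higher and 1 lower, beside 8.48% of all genes, 4.99% higher and 3.49% lower. For MCA 2 of 7 were called, both lower, beside 28.1%, of which 14.8% were higher and 13.3% lower. Higher genes made up 58.8% and 52.7% of these calls, and 70.3% and 73.5% under median scaling. The count was 0 of 7 for 50 µM DAT (8.2%), 25 µM AAF (0.0553%) and 10 µM AAF (0%). For Bbc3 the MCA difference was 0.35 (95% interval 0.07 to 0.64, limma adjusted p = 0.0591, 0.0322 with the replicate block, and 0.0463 and 0.0386 without the first control array at 24 h or the third at 120 h). The replicate numbers do not pair all arrays of 2 µM MCA at 24 h with the controls, which limits that block value. For Mcl1 the BaP difference was 0.19 (limma adjusted p = 0.145, 0.0447 with the replicate block, and 0.0356 without the first BaP array at 120 h).

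BaP and MCA, both polycyclic aromatic hydrocarbons and ligands of the aryl hydrocarbon receptor, were given at a matched dose once, at 0.1 µM for 120 h. BaP minus MCA passed for 0 of 7 members, beside 0.0791% of all genes. This was the 1 matched pair of chemicals tested. The differences ran from -0.08 for Bcl2 (95% interval -0.42 to 0.26) to 0.14 for Mcl1 (95% interval -0.06 to 0.34). For Bcl2l11 it was 0.13 (95% interval -0.21 to 0.47) and for Bid 0.02 (95% interval -0.27 to 0.30), so differences of these sizes cannot be told from none here.

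A list of 11 further tested genes held genes of the Bcl2 family and the Bcl2-associated Bclaf1, which is not a family member. Of these 11, 2 rose and 3 fell after 2 µM MCA for 120 h. After 50 µM DAT for 120 h 1 rose and 4 fell, and after 0.5 µM BaP for 120 h 1 rose and 0 fell. Beside them stand 39.1%, 23.7% and 26.7% of all genes called. Bmf, a BH3-only gene, fell by 0.62 after MCA (limma adjusted p = 1.15e-05) and by 0.38 after DAT (limma adjusted p = 0.00506), and rose by 0.31 after 0.5 µM BaP for 24 h (limma adjusted p = 0.0435). In the approach 1 and 2 controls Bmf rose with time by 1.71 and 1.96. Bad, the BH3-only protein held inactive by growth factor signalling, rose by 0.24 after MCA and by 0.22 after DAT. Bnip3, the mitophagy receptor related to Nix, fell by 0.35 after 0.5 µM BaP for 24 h and by 0.33 after 1.5 µM BaP for 24 h.

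The caspase pathway list held 18 tested genes, among them death receptor genes as well as genes acting after the mitochondrial pore. The BaP group at 120 h (0.5 µM) had 5 higher and 1 lower, after 50 µM DAT 3 rose and 2 fell, and after 2 µM MCA 4 rose and 3 fell. Of all genes 26.7%, 23.7% and 39.1% were called in these treatments, and the caspase list lay near those shares at 120 h. Birc5, which encodes survivin, a mitotic protein and inhibitor of apoptosis, rose by 0.78, 1.08 and 1.54 in these treatments. Between the control times Birc5 differed by -2.42 and -2.04 in approaches 1 and 2. Birc3, which encodes the ubiquitin ligase cIAP2, rose in 5 of 16 treatments, by 0.56 after 20 µM MCA for 24 h. Birc2, its cIAP1 paralog, rose by 0.26 after 0.5 µM BaP and fell by 0.21 after 2 µM MCA at 120 h. At 24 h, 3 of the 18 rose and 0 fell after 0.5 µM BaP, and the same counts held after 2 µM MCA. Of all genes 9.38% and 2.21% were called in this pair. After 700 µM DAT and after 20 µM MCA for 24 h 1 rose and 0 fell in each, beside 7.82% and 1.29%.

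Of 12 genes of the Atf4 and Chop stress response, a pathway known to act on Bcl2l11 and Bbc3, 11 rose and 0 fell after 0.5 µM BaP for 120 h, with a median of 0.47. After 700 µM DAT for 24 h 6 rose and 0 fell, with a median of 0.66. Of all genes 26.7% and 7.82% were called in these treatments. The 2 µM MCA group at 120 h had 4 higher and 3 lower, beside 39.1% of all genes. Ddit3, which encodes Chop, rose by 0.93 after 700 µM DAT and by 0.44 after 0.5 µM BaP for 120 h, and fell by 0.25 after 2 µM MCA for 120 h. Chac1, a glutathione-degrading enzyme, rose by 1.01 and 0.89 in the first pair of treatments. Ddit4, an mTOR inhibitor, rose by 0.60 after 2 µM MCA for 120 h.

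Of 17 genes linked to hypoxia and mitophagy, the setting in which Nix is known to act, 2 rose and 8 fell after 0.5 µM BaP for 24 h, and 3 rose and 6 fell after 700 µM DAT for 24 h, where 9.38% and 7.82% of all genes were called. At 120 h 5 rose and 2 fell after 2 µM MCA, 5 rose and 5 fell after 50 µM DAT, and 1 rose and 6 fell after 0.5 µM BaP, where 39.1%, 23.7% and 26.7% of all genes were called. Ankrd37 fell by 0.91 after 0.5 µM BaP and by 1.08 after 700 µM DAT at 24 h. Egln3, an oxygen-sensing hydroxylase, fell by 0.57 and 0.76 there and rose by 0.69 after 2 µM MCA for 120 h. Sqstm1, the autophagy adaptor p62, rose in 6 of 16 treatments, by 0.26 to 0.33.

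Fibroblast markers moved beside the Bcl2l11 and Bid calls of 2 µM MCA and 0.5 µM BaP at 120 h. Of the 9 markers 7 fell and 1 rose after 2 µM MCA for 120 h, where 39.1% of all genes were called. After 0.5 µM BaP for 120 h 5 fell and 1 rose, beside 26.7% of all genes. Their summed normalised intensity was 40785 to 42912 and 36690 to 39288 on these arrays, against 46781 to 51520 in the controls, with no overlap. After 50 µM DAT for 120 h, where Bcl2l11 and Bid were called, 3 fell and 1 rose, beside 23.7% of all genes. The sums there, 45059 to 48438, overlapped the controls. After 0.5 µM BaP for 24 h, where Bcl2 was called, 3 fell and 0 rose, beside 9.38% of all genes. The sums there, 33056 to 34243, lay below the controls' 34973 to 36999. Beside the Bid call after 700 µM DAT for 24 h, 0 of the 9 were called (7.82% of all genes), and the sums of 114400 to 125270 overlapped the controls' 111800 to 126480. Between the control times of approach 1, 7 of the 9 rose and 2 fell, beside 57.8% of all genes called. The sum was 34973 to 36999 at 24 h and 46781 to 51520 at 120 h. In approach 2, 6 rose and 2 fell, beside 40.2% of all genes, with sums of 111800 to 126480 and 142570 to 158340. The part of these markers in the member differences was not tested.

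Across the 20 group means, with each approach centred on its own mean, Bak1 and Bcl2l11 ran opposite to each other (r = -0.95). Bcl2 and Mcl1 ran together (r = 0.93), as did Bcl2l1 and Mcl1 (r = 0.88). These are descriptions, since the groups share arrays, controls and culture times. The genes most like Bcl2l11 over these means were Mapt (r = 0.993), Akap13 (r = 0.991) and Mir99ahg (r = 0.989). Bak1 was most like Tmem14c (r = 0.988), Bid most like Lpin2 (r = 0.929) and Bbc3 most like Senp8 (r = 0.91). Bcl2 was most like Akt2 (r = 0.938), Mcl1 most like Rbms1 (r = 0.946) and Bcl2l1 most like Mcl1.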

How the data were processed

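Biotin-labelled cRNA was put on 1-colour Affymetrix arrays, per the labels' protocols, and GCOS is named without a version in the submitters' processing notes. The authors deposited 1 linear intensity for each of 45101 probe sets on 60 arrays. Summarization and scaling target are not given in the sources used here, and the approaches are scaled differently. Levels were therefore not tested across them. Of the probe sets 34958 have 1 gene symbol, 932 several and 9211 none in the platform's table.

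Values were quantile normalized within each approach and taken as log2(intensity + 16). A gene was tested if its brightest probe set lay above the array median on at least 3 arrays. Each approach had its own limma fit (limma 3.58.1, R 4.3.3) to its 10 groups (residual degrees of freedom 20, variance trended on intensity). Its two-sided p-values were adjusted by Benjamini-Hochberg in each of 24 comparisons, over 12650 genes. Single probe sets were fitted over 23652 probe sets. Members, lists, motifs and separate fits were chosen with earlier results of these data known. Members were named wherever called, and at most 3 genes of each list were named, those called in the most treatments, with ties settled alphabetically after values were seen.

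Replicate numbers were judged to pair where the deviations of all 3 same-numbered pairs correlated over 0.1. This held in 12 of 16 treatment comparisons, in the approach 2 controls and in BaP minus MCA. The main fit used no pairs, so its p-values and intervals ignore them. The replicate block was an alternative, applied to every comparison. What same-numbered arrays share is not given in the labels. On simulated data with 200 changed genes among 12650, the approach 1 fit recovered 79.1%, 100% and 100% of 1.5-fold, 2-fold and 4-fold changes for 2 µM MCA at 120 h. The approach 2 fit recovered 37.3%, 76.1% and 93.9% for 700 µM DAT at 24 h. They called 10 and 5 unchanged genes. Alternatives changed the fit, normalization, pseudocount, filter, probe set, block and replicates.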

Additional observations from a re-analysis of the deposited data

Results flagged for a closer look

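Responses of 2 members differed between 24 h and 120 h at the same dose, by the test of the difference itself. For 0.5 µM BaP the Bid response was 0.38 higher at 120 h (limma adjusted p = 0.012), from -0.05 at 24 h to 0.33 at 120 h. The Bcl2l11 response to the same dose differed by -0.59 (limma adjusted p = 0.0209), from -0.13 to -0.72. For 2 µM MCA the Bid response differed by -0.36 (limma adjusted p = 0.00606), from -0.07 to -0.42, and the Bcl2l11 response by -0.69 (limma adjusted p = 0.00215), from -0.17 to -0.87. All 4 share the control arrays of approach 1. The control level of Bcl2l11 had itself risen by 2.02 between the 2 times, and its part in these differences was not tested. The Bcl2l11 difference held in 24 of 24 other settings for MCA and in 15 of 24 for BaP, and the Bid difference in 19 of 24 and 20 of 24. Both Bid differences were lost in 1 fit of all 60 arrays, with no normalization, under median scaling and with the second brightest probe set. The MCA difference of Bid was also lost with the mean over all probe sets.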

How the results depend on the processing

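Direction turned in 4 values that had passed: Mcl1 in the approach 2 controls was -0.45 under median scaling, Bid in the approach 1 controls was -0.0017 with the mean over probe sets and -0.0824 with the second brightest, and Bcl2l1 there was -0.0629 with the second brightest. Sign changes of values that never passed were not counted. Besides these 4, 83 values of single members lost their call with no turn of direction and 35 gained one over the alternatives run, and 3088 stayed on their side of the threshold. The number of members called moved by more than 1.5 times as follows. With 1 fit of all 60 arrays it was 0 for BaP at 24 h and DAT at 120 h in approach 1 and 1 for 0.1 µM MCA, and 0 and 1 for the time differences of BaP and MCA. With the compared arrays alone it was 0, 1 and 0 for these BaP and DAT groups and 700 µM DAT, and 1 and 1 for the time differences of BaP and DAT. With no normalization and with median scaling it was 0, 0 and 0, and 0 and 1 for the time differences of BaP and MCA. For 2 µM MCA at 24 h it was 1 with quantile normalization over 60 arrays, with the filter at 30 arrays and with the replicate block. With no filter, which adds Pmaip1 as an eighth member, it was 1 for 50 µM DAT at 120 h and 0 for 700 µM DAT. With the mean over probe sets it was 1 for 25 µM AAF and 0 for BaP at 24 h, and 1 for the time differences of DAT and MCA. With the second brightest probe set, which 6 members have, it was 1 for 50 µM DAT at 120 h, 0 for 700 µM DAT, 4 for the approach 1 controls and 1 for the time differences of BaP and MCA. With the replicate block it was 1 for 25 µM AAF at 24 h, 2 each for BaP at 0.1 µM, DAT at 700 µM and MCA at 20 µM, 3 for 0.1 µM MCA and 1 for the time difference of DAT. The block called 5.52%, 10.6%, 22.9%, 7.69%, 9.9% and 15.4% of all genes there, in that order. Among time differences it gained Bcl2l11 for DAT (adjusted p 0.0306), Mcl1 for BaP (0.0447) and Bbc3 for MCA (0.0322). The DAT and MCA values include 50 µM DAT at 120 h and 2 µM MCA at 24 h, where the numbers do not pair all arrays. The block changed no other count by that much. In comparisons where the numbers do not pair all arrays, it called Bid and Bcl2l11 after 0.1 µM BaP (adjusted p 0.00638 and 0.0067), Bcl2l1 after 50 µM DAT for 120 h (0.0168) and Bcl2 after 2 µM MCA for 24 h (0.0295). Leaving out 1 array at a time gave 0 to 1 for BaP at 24 h, 0 to 2 for 50 µM DAT at 120 h, 0 to 1 for 700 µM DAT, 0 to 1 for 2 µM MCA at 24 h, 1 to 3 for the time difference of BaP and 1 to 3 for the approach 2 controls, where 1 remained without the first array at 120 h. It gave 2 to 3 for 0.5 µM BaP and 3 for 2 µM MCA at 120 h. Counts over all genes moved by more than 1.5 times in several settings: 2 µM MCA at 120 h called 39.1% in the main setting and 23% in 1 fit of all arrays, and 700 µM DAT called 7.82%, 16.6% in that fit and 22.9% with the block. Under median scaling the median of all genes was -0.38 in the approach 2 controls (-0.05 in the main setting) and 0.16 for 0.1 µM BaP (0.05). The cause was not tested. The wider spread of approach 2 and 3 arrays a group limit what could be called there. At 120 h the doses of approach 2 were also all below those of approach 1, so dose and approach cannot be told apart there.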
